A study of Mus musculus with 15 samples.

Results

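Iron handling in the cecum was followed through 8 genes, Slc11a2, Cybrd1, Slc40a1, Heph, Tfrc, Fth1, Ftl1 and Hmox1, chosen by name as carriers, enzymes and stores of iron. All 8 were found among the 45804 genes of the deposited table. The samples were ceca of C57BL/6 mice (labelled WT, and 20 weeks of age by the labels, older than the methods imply), dissected, emptied and frozen, with 7 mice given AIMD and 8 given vehicle. AIMD, antibiotic-induced microbiome depletion, was a gavage of ampicillin, vancomycin, metronidazole, neomycin and the antifungal amphotericin B, given 2 times a day for 30 days, and vehicle was water on the same schedule. Every mouse was male, ate normal chow and shared a cage with other mice, and which mice shared a cage was not given in the sources used here. Levels are FPKM, reads on a gene relative to its length and to the size of the library, by a scaling not given in the sources used here. The RNA came from whole cecum, so fewer cells of a type and less RNA per cell cannot be told apart.

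In the gut wall, ferric iron is reduced by the membrane reductase Cybrd1 (Dcytb), taken up by the divalent metal transporter Slc11a2 (DMT1), and stored in ferritin, a shell built of the heavy chain Fth1 and the light chain Ftl1. It leaves the cell for the blood through ferroportin, Slc40a1, helped by the copper oxidase hephaestin, Heph. Cells also take iron from transferrin in the blood through the transferrin receptor, Tfrc, and free it from heme with heme oxygenase, Hmox1. The duodenum is the main site of dietary iron uptake. Many of these transcripts carry an iron-responsive element, a hairpin bound by the iron regulatory proteins Aco1 and Ireb2 when iron is scarce. Bound in a 5′ UTR it blocks translation, and bound in a 3′ UTR it protects the transcript from decay, so that mRNA levels of Tfrc can follow iron while ferritin is regulated mainly at translation.

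Hairpins that met a strict motif stood in 4 of the 8 genes and are shown for that reason. They were found in GENCODE M21 transcripts (GRCm38) by the motif CNNNNNCAGTGN on the transcript strand, with all 5 pairs of the upper stem formed and G-U pairs allowed. Capitals mark the loop of 6 bases, and the unpaired C stands 5 bases before it.
Fth1 5′ UTR, chr19:9982732-9982760, plus strand: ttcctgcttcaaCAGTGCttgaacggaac
Ftl1 5′ UTR, chr7:45459779-45459807, minus strand: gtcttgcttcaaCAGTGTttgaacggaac
Slc40a1 5′ UTR, chr1:45925465-45925493, minus strand: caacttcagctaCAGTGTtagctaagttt
Tfrc 3′ UTR, chr16:32631219-32631247, plus strand: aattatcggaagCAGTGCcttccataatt
Tfrc 3′ UTR, chr16:32631598-32631626, plus strand: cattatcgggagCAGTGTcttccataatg
Tfrc 3′ UTR, chr16:32631663-32631691, plus strand: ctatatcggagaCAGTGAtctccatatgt
Tfrc 3′ UTR, chr16:32631710-32631738, plus strand: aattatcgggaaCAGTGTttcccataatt
The 5′ elements lie in 3 transcripts that export or store iron, and Tfrc alone among the 8 genes held 4 matches in its 3′ UTR. Each of these hairpins also had at least 4 of 6 pairs in the lower stem. Matches of that kind stood in 0.0292% of 20580 genes with a 5′ UTR and in 0.0810% of 20978 genes with a 3′ UTR. No match was found in the UTRs of the other members by this rule. A hairpin with a bulge or an unpaired base in the upper stem would be missed, so those members may still hold an element.

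Of the 8 members, 7 were tested with limma on log2(FPKM + 0.5), and 3 were called at an adjusted p under 0.05. Tfrc, Slc40a1 and Ftl1 were higher in AIMD mice, none was lower, and Heph, Slc11a2, Fth1 and Hmox1 were not called. Across the cecum 36.0% of the 11971 genes tested were called, made up of 19.4% higher and 16.6% lower in AIMD mice. The 3 of 7 members called are 42.9%, and with so few members the count says little beyond that background. An unadjusted p under 0.05 in limma, and limma voom on the recovered reads, also gave 3 members higher and 0 lower. The median log2 fold change was 0.40 over the 7 tested members and 0.0066 over all genes tested. Groups did not overlap for Tfrc and Slc40a1, which set them with the 5.27% of tested genes whose AIMD mice all lay above every vehicle-treated mouse.

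**Figure D1:**
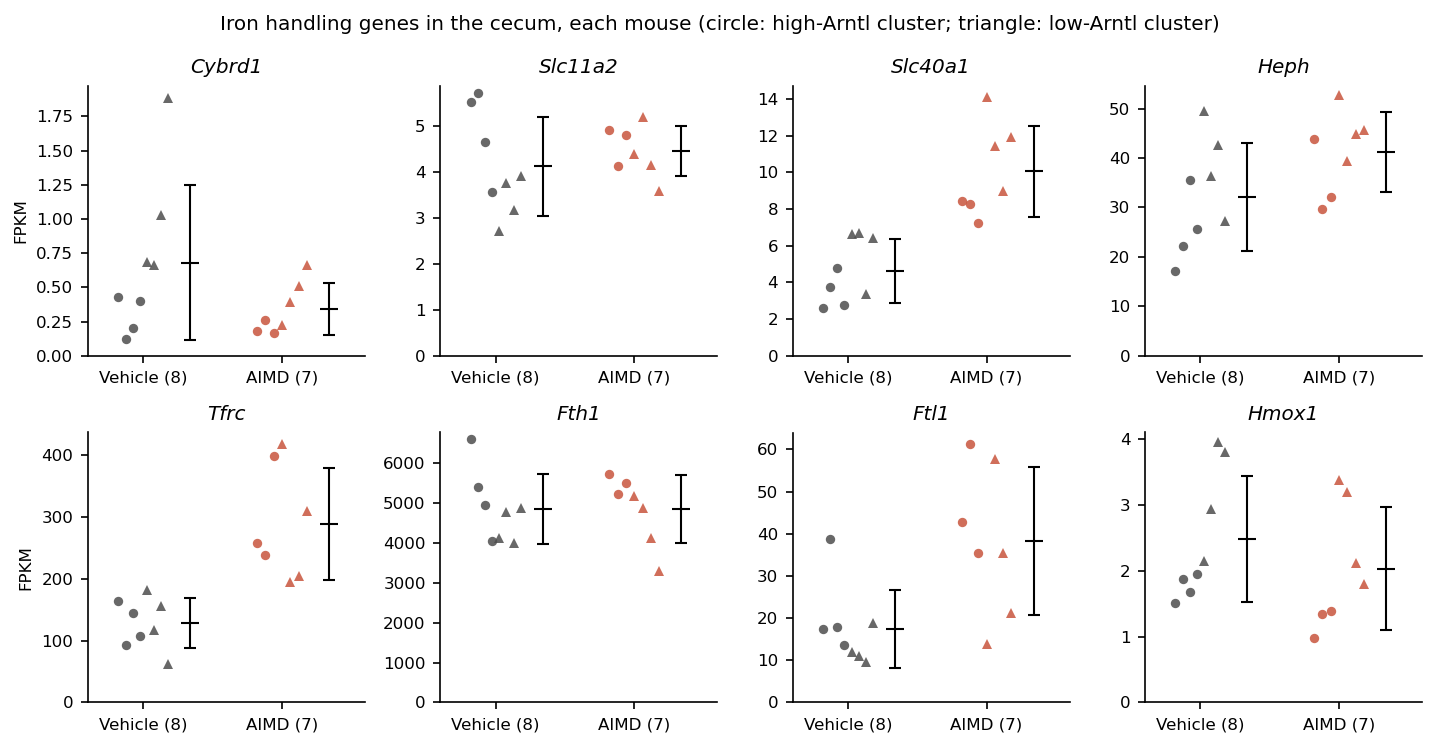
FPKM of each iron handling gene in every mouse, vehicle-treated (grey, 8 mice) and AIMD (red, 7 mice), with the mean and SD as bars beside the points. Every AIMD mouse lies above every vehicle-treated mouse for Slc40a1 and Tfrc, while Fth1 has the same mean of about 4850 FPKM in both groups.

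Levels per length ran from 6605 FPKM to below 1. In AIMD mice the order of the means was Fth1 at 4849 FPKM, Tfrc at 288, Heph at 41.2, Ftl1 at 38.3, Slc40a1 at 10.1, Slc11a2 at 4.46, Hmox1 at 2.03 and Cybrd1 at 0.344. Vehicle-treated mice gave the same order, and the neighbours whose mice overlapped differed between the groups. Heph and Ftl1 overlapped in both groups. Slc40a1 and Slc11a2 overlapped in vehicle-treated mice, with means of 4.64 and 4.13 FPKM, and had no mouse in common range in AIMD mice. Ftl1 overlapped with Slc40a1 in AIMD mice, and Hmox1 overlapped with both Slc11a2 and Cybrd1 in vehicle-treated mice.

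Recovered from the steps of the FPKM, the reads per mouse ranged from 8679427 to 18107988 in AIMD mice (median 11244134). In vehicle-treated mice they ranged from 4372138 to 14405458 (median 7855119.5), with vehicle replicate 8 the least deep. The median depth was thus higher in AIMD mice, and the read numbers given below carry that difference. All 5 large-intestine markers and all 7 epithelial markers of the labelled tissue passed the filter. The summed FPKM of the epithelial markers was 4265 to 6752 with AIMD and 3576 to 5506 with vehicle, and 2 were called higher and 1 lower. That of 6 smooth muscle markers was 213 to 813 with AIMD and 517 to 3018 with vehicle, with 1 called lower. Called were 42.9% of the epithelial and 16.7% of the smooth muscle markers, against 36.0% of all genes tested. The part of either tissue in the results was not tested. The 12 clock genes tested put the mice in 2 clusters along 1 axis that held 93.6% of their variance after centring within groups. AIMD replicates 1 to 3 and vehicle replicates 1 to 4 had high Arntl, a core clock gene, and AIMD replicates 4 to 7 and vehicle replicates 5 to 8 had low Arntl. The labels give no time of sacrifice, which the authors had in their own model, so the fold change of each tested member is given below within the clusters too. Whether an effect differed between the clusters was not tested.

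Among the genes of reduction and uptake at the lumen Cybrd1 was near the limit of detection and Slc11a2 did not separate the groups. Cybrd1 is on chromosome 2, plus strand, between 71117923 and 71142926 (GENCODE M21 on GRCm38, as for all positions here), and rested on 8 to 44 reads a mouse. Its FPKM was 0.168 to 0.667 (median 0.265) in AIMD mice and 0.125 to 1.88 (median 0.549) in vehicle-treated mice. The groups overlapped almost throughout, and the highest values were those of vehicle replicates 7 and 8. Only 6 of 15 mice reached an FPKM of 0.5, so Cybrd1 did not pass the filter on low values. Tested without the filter, its log2 fold change was -0.38 (standard error, SE, 0.24, adjusted p = 0.323 in limma).

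Slc11a2 carries ferrous iron across the apical membrane and out of endosomes, and it is on chromosome 15, minus strand, between 100387898 and 100425072. Its FPKM was 3.59 to 5.20 (median 4.40) in AIMD mice and 2.71 to 5.73 (median 3.85) in vehicle-treated mice. Vehicle-treated mice held both the lowest and the highest value, and the AIMD mice lay between them. The mean was 4.46 ± 0.551 (SD, n = 7) against 4.13 ± 1.08 (SD, n = 8), which was a log2 fold change of 0.13 (SE 0.14, 95% interval -0.17 to 0.42, adjusted p = 0.516 in limma). In the high-Arntl cluster the log2 fold change was -0.05 (adjusted p = 0.87 in limma) and in the low-Arntl cluster 0.31 (adjusted p = 0.199 in limma). It shares exon bases with Gm5475 on the opposite strand, which reached at most 0.0576 FPKM.

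At the export step Slc40a1 separated the groups and Heph did not. Slc40a1, the only known cellular exporter of iron, is on chromosome 1, minus strand, between 45908068 and 45926523. Its FPKM was 7.26 to 14.1 (median 8.97) in AIMD mice and 2.63 to 6.72 (median 4.29) in vehicle-treated mice. The lowest AIMD mouse, replicate 3, was above the highest vehicle-treated mouse, replicate 6, and 895 to 1382 reads a mouse stood behind the AIMD values and 174 to 562 behind the vehicle values. The mean was 10.1 ± 2.47 (SD, n = 7) against 4.64 ± 1.75 (SD, n = 8), 2.17 times as high. On the log2 scale the change was 1.08 (SE 0.21, 95% interval 0.65 to 1.52, adjusted p = 0.000819 in limma). Slc40a1 was higher in AIMD mice in both clusters, by 1.12 in the high-Arntl cluster (adjusted p = 0.00594 in limma) and by 0.97 in the low-Arntl cluster (adjusted p = 0.0168 in limma). In each treatment group the median was lower in the high-Arntl cluster, at 8.29 against 11.7 FPKM in AIMD mice and 3.27 against 6.54 in vehicle-treated mice.

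Macrophages that recycle iron from red cells also express ferroportin, so their markers are given beside it. Of 10 macrophage markers listed 8 were tested, and 4 (Cd68, Csf1r, C1qa and Lyz2) were called higher in AIMD mice and 0 lower. The median log2 fold change was 0.46 over the 8. Mrc1 and C1qc lay the other way without being called, at -0.69 (adjusted p = 0.0516 in limma) and -0.14 (adjusted p = 0.683 in limma). The summed FPKM of all 10 was 76.5 to 247 (median 135) in AIMD mice and 53.1 to 98.6 (median 71.8) in vehicle-treated mice, most of it Lyz2. Spic and Siglec1, which mark macrophages that handle red cell iron, were under 0.5 FPKM in all mice. The part of macrophages in the level of Slc40a1 was not tested.

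Heph oxidises exported iron so that transferrin can bind it, and it is on chromosome X, plus strand, between 96455359 and 96574485. Its FPKM was 29.6 to 52.8 (median 43.8) in AIMD mice and 17.2 to 49.5 (median 31.5) in vehicle-treated mice. The groups overlapped in their higher mice, and 4 of 8 vehicle-treated mice lay below the lowest AIMD mouse. The mean was 41.2 ± 8.12 (SD, n = 7) against 32.1 ± 10.9 (SD, n = 8), which was a log2 fold change of 0.40 (SE 0.20, 95% interval -0.02 to 0.83, adjusted p = 0.125 in limma). It was called only without vehicle replicate 5, the vehicle-treated mouse with the most Heph, where the log2 fold change was 0.50 (adjusted p = 0.0494 in limma), and its range over all 26 alternatives was 0.25 to 0.50. Within the clusters it was 0.50 with high Arntl (adjusted p = 0.175 in limma) and 0.25 with low Arntl (adjusted p = 0.38 in limma). Hephaestin needs copper, and the copper importer Slc31a1 (Ctr1) was higher in AIMD mice, with 27.9 ± 3.94 FPKM (SD, n = 7) against 19.9 ± 2.41 (SD, n = 8) and a log2 fold change of 0.47 (adjusted p = 0.00372 in limma). Cp, Hephl1 and Atp7a, the other genes of that list, did not pass the filter.

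Tfrc, which takes up transferrin-bound iron from the blood side, is on chromosome 16, plus strand, between 32608920 and 32632794. Its mean FPKM was the second highest among the members, where the level of Ftl1 is uncertain. Its FPKM was 195 to 418 (median 257) in AIMD mice and 62.7 to 182 (median 131) in vehicle-treated mice. The lowest AIMD mouse, replicate 5, was above the highest vehicle-treated mouse, replicate 5, and vehicle replicate 8 was the lowest of all. The mean was 288 ± 90.1 (SD, n = 7) against 128 ± 39.9 (SD, n = 8), 2.25 times as high. The log2 fold change was 1.18 (SE 0.23, 95% interval 0.70 to 1.66, adjusted p = 0.000877 in limma), the largest among the 7 tested members. Within the clusters it was 1.22 (adjusted p = 0.0101 in limma) with high Arntl and 1.15 (adjusted p = 0.043 in limma) with low Arntl, and it was called under all 26 alternatives. The medians of the clusters were alike in AIMD mice, at 257 and 256 FPKM, and in vehicle-treated mice, at 126 and 136.

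Tfrc is abundant in dividing and in red-cell-forming cells, and markers of both were measured. Of 7 proliferation markers tested 2 (Mki67 and Pcna) were higher and 1 (Mcm2) lower in AIMD mice, with sums of 51.1 to 73.4 (median 53.9) against 36.2 to 66.1 FPKM (median 51.2). Of 4 red cell markers tested 0 were higher and 2 (Hbb-bt and Hba-a1) lower. Sums over the 6 measured were 22.9 to 61.7 (median 31.7) in AIMD mice against 34.5 to 123 (median 54.8) in vehicle-treated mice. Slc4a1, a red cell membrane protein, was under 0.5 FPKM in all mice, and Hbb-bt and Hba-a1 share 58.3% and 72.3% of their 50-base windows with other genes. The part of these cells in the level of Tfrc was not tested.

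By these values the ferritin chains parted from each other, with the limit on Ftl1 given below. Fth1, the ferroxidase chain, is on chromosome 19, plus strand, between 9980598 and 9985098. It had the highest FPKM of the members, with 18473 to 90401 reads a mouse. Its FPKM was 3304 to 5739 (median 5169) in AIMD mice and 3996 to 6605 (median 4828) in vehicle-treated mice, and 6 of 7 AIMD mice lay within the range of the vehicle-treated mice. The mean was 4849 ± 855 (SD, n = 7) against 4850 ± 869 (SD, n = 8), which was a log2 fold change of -0.00 (SE 0.16, 95% interval -0.35 to 0.34, adjusted p = 0.989 in limma). Within the clusters it was 0.08 with high Arntl (adjusted p = 0.837 in limma) and -0.04 with low Arntl (adjusted p = 0.921 in limma). After quantile normalization of the log2 values it was 0.49 and still not called (adjusted p = 0.0534 in limma).

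Ftl1, the chain that seeds the iron core, is on chromosome 7, minus strand, between 45457944 and 45459884. Its FPKM was 13.8 to 61.3 (median 35.4) in AIMD mice and 9.69 to 38.8 (median 15.5) in vehicle-treated mice. AIMD mice lay higher as a group but spread widely, with replicate 4 inside the vehicle range and only 3 of 7 above vehicle replicate 2, the highest of the vehicle-treated mice. The mean was 38.3 ± 17.5 (SD, n = 7) against 17.4 ± 9.30 (SD, n = 8), and the log2 fold change was 1.09 (SE 0.31, 95% interval 0.43 to 1.75, adjusted p = 0.0123 in limma). It was 1.15 in the high-Arntl cluster (adjusted p = 0.0361 in limma) and 1.14 in the low-Arntl cluster, where it was not called (adjusted p = 0.0618 in limma). Of the 50-base windows of Ftl1 transcripts 50.9% also occur in other genes, chiefly the pseudogene Ftl1-ps1. Its exons overlap Gm10252 on the opposite strand, which was not analysed here, and Gm22133 on the same strand, listed at 0 in all mice. The level of Ftl1, the 83 to 1039 reads behind it and the fold change are therefore uncertain.

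The ratio of Fth1 to Ftl1 in the same mouse, a description, was 84.4 to 375 (median 134) in AIMD mice and 140 to 438 (median 321) in vehicle-treated mice, and it carries the same uncertainty. Slc40a1 to Slc11a2, exporter to importer, was 1.51 to 3.32 (median 2.15) in AIMD mice and 0.476 to 2.44 (median 1.05) in vehicle-treated mice. Tfrc to Slc40a1 was 17.1 to 54.8 in AIMD mice and 9.72 to 62.0 in vehicle-treated mice, with a median of 28.7 in both. All 3 ratios overlapped between the groups.

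Hmox1, on chromosome 8 from 75093621 to 75100589, frees iron from heme and is induced by heme and by oxidative stress. Its FPKM was 0.98 to 3.39 (median 1.81) in AIMD mice and 1.51 to 3.96 (median 2.05) in vehicle-treated mice, from 24 to 93 reads a mouse. The groups overlapped, and 3 of 7 AIMD mice, replicates 1 to 3, lay below every vehicle-treated mouse. The mean was 2.03 ± 0.937 (SD, n = 7) against 2.49 ± 0.961 (SD, n = 8), which was a log2 fold change of -0.26 (SE 0.23, 95% interval -0.74 to 0.22, adjusted p = 0.397 in limma). All mice with high Arntl had less Hmox1 than any mouse of their own treatment with low Arntl, with medians of 1.35 against 2.66 FPKM in AIMD mice and 1.78 against 3.37 in vehicle-treated mice. No test was made between the clusters, and the log2 fold change within them was -0.38 (adjusted p = 0.138 in limma) and -0.25 (adjusted p = 0.459 in limma).

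Bach1, a repressor of Hmox1 and of the ferritin genes, was among 10 genes listed around the stress regulators NRF2 and BACH1. It was at 8.07 ± 1.93 FPKM (SD, n = 7) with AIMD and at 3.56 ± 1.26 (SD, n = 8) with vehicle, a log2 fold change of 1.12 (adjusted p = 0.000656 in limma). Of the 9 genes tested 4 were higher (Bach1, Gclc, Txnrd1 and Srxn1) and 2 lower (Keap1 and Nqo1) in AIMD mice. The share called was 66.7% of this short list, against 36.0% of all genes tested. Nfe2l2, which encodes NRF2, was at 92.7 against 90.8 FPKM and not called.

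**Figure D2:**
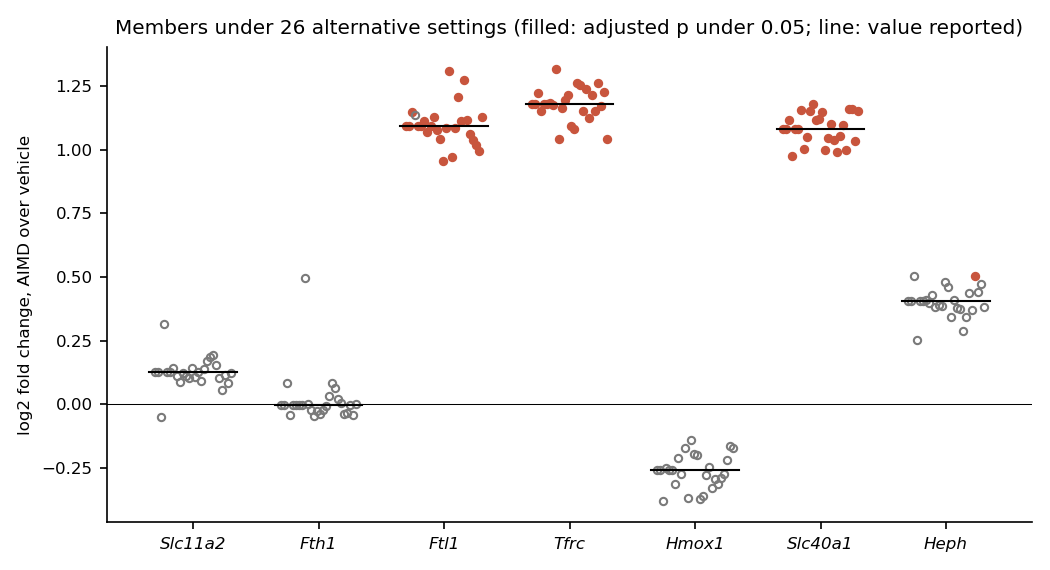
Log2 fold change, AIMD over vehicle, of each tested member under 26 alternative settings (circles, filled where the adjusted p was under 0.05) and as reported (line). Slc40a1 and Tfrc are filled throughout, Ftl1 is open once, and Heph is filled once at 0.50.

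The members did not vary as 1 block among mice of the same treatment. Pearson correlations of log2 values centred within treatment groups were taken within each clock cluster, 7 mice with high Arntl and 8 with low Arntl, as a description. Fth1 and Slc11a2 went together in both, at 0.88 and 0.79. Ftl1 went against Tfrc in both, at -0.62 and -0.81, although both were higher in AIMD mice. Heph and Slc40a1 correlated at 0.72 with high Arntl and at -0.10 with low Arntl, and Heph and Tfrc at -0.11 and 0.94, so those pairs differed in value from cluster to cluster. The mice share their libraries and depth across all genes, and with so few mice single values are loose.

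**Figure D3:**
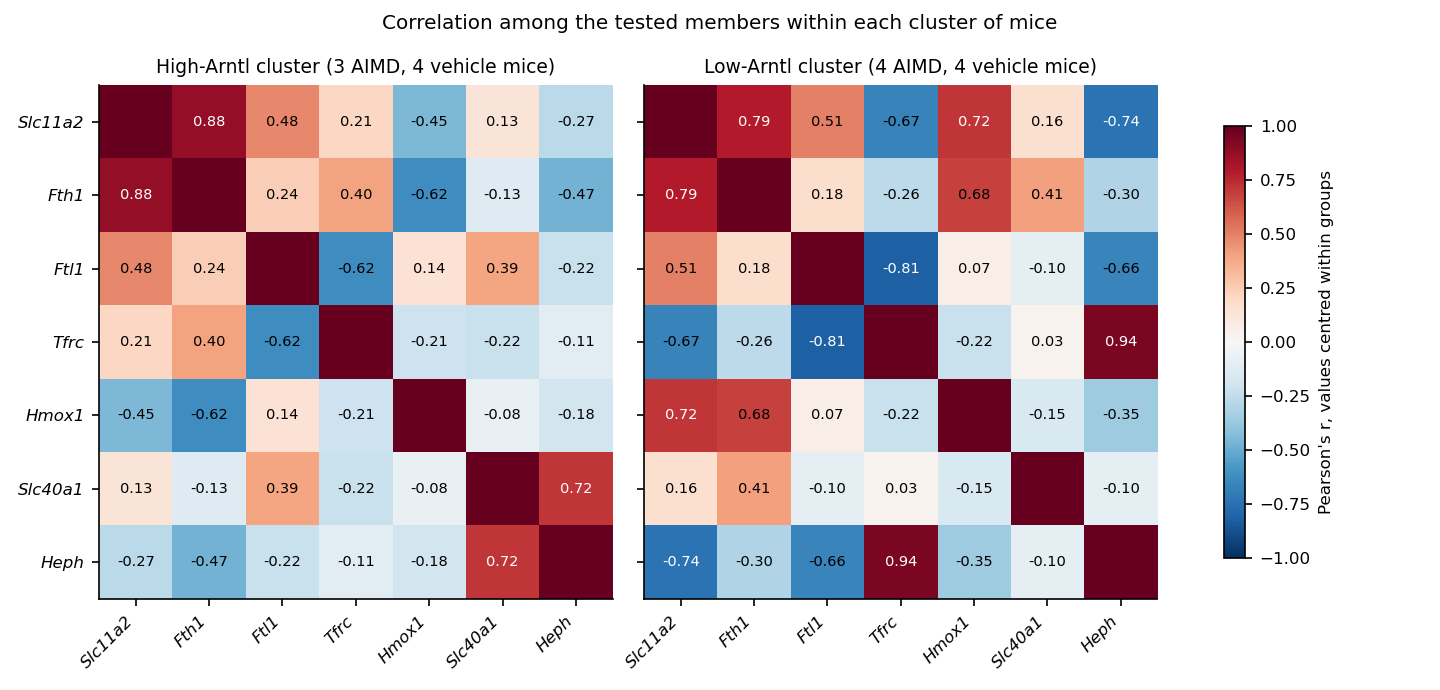
Pearson's r between log2 values of the 7 tested members within each clock cluster, centred within treatment groups (red positive, blue negative). Fth1 with Slc11a2 at 0.88 and 0.79 and Ftl1 with Tfrc at -0.62 and -0.81 keep their sign in both panels.

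For the 3 members called, the genes with the most similar pattern over 15 mice were sought among 11971, with values centred within groups. Tfrc went with Cox6c (r = 0.97), Timm10b (0.96) and Sirt5 (0.96), and each of these was at least 0.87 within either cluster. Ftl1 went with Cenpb (r = 0.96), Hmg20b (0.95) and Deaf1 (0.94), at least 0.89 within either cluster. Slc40a1 had less close companions in Ptprr (r = 0.89), Ppl (0.85) and Abcg1 (0.85), and Ppl was at 0.52 in the low-Arntl cluster. Spearman's rho was 0.84 to 0.96 for the 9 pairs, and r without the 2 mice farthest from the centre was 0.78 to 0.96.

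Around the 8 members stand 85 other genes of the iron and heme pathways, of which 83 were in the table and 65 passed the filter. Of these 8 were higher and 14 lower in AIMD mice, so 33.8% were called against 36.0% of all genes tested, and the median log2 fold change was -0.08. Within 1 cluster of mice 4 were higher and 8 lower at high Arntl and 7 higher and 7 lower at low Arntl, and of all genes tested 15.7% and 20.7% were called in those fits of fewer mice. The share called was thus close to that of the tissue, and what follows describes single genes, not a change of the pathway. Where groups did not overlap this is given for single genes, many of them picked for large changes. Of all genes tested 5.27% lay wholly higher in AIMD mice, and the share wholly lower was not computed.

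Sensing came first. The iron regulatory proteins Aco1 and Ireb2, which bind the hairpins, were at 22.8 ± 2.46 and 20.4 ± 3.30 FPKM (SD, n = 7) in AIMD mice and at 23.1 ± 3.15 and 19.9 ± 5.71 (SD, n = 8) in vehicle-treated mice. Their log2 fold changes were -0.01 (95% interval -0.25 to 0.22) and 0.08 (-0.30 to 0.45), and neither was called (adjusted p = 0.943 and 0.764 in limma). Fbxl5, the iron-sensing ligase subunit that marks Ireb2 for degradation, had 12.1 to 18.5 FPKM (median 13.7) in AIMD mice and 14.5 to 39.3 (median 22.9) in vehicle-treated mice. It was lower in AIMD mice (log2 fold change -0.69, SE 0.18, adjusted p = 0.00696 in limma), and 4 of 7 AIMD mice lay below every vehicle-treated mouse. In the low-Arntl cluster alone it was not called (-0.82, adjusted p = 0.0637 in limma).

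Hepcidin, the hormone that removes ferroportin from the cell surface, comes mainly from the liver, and Hamp reached at most 0.274 FPKM in the cecum. Hamp2 and Bmp6 also failed the filter, Hfe2 and Tmprss6 were listed at 0 in all mice, and Ftmt, a mitochondrial ferritin, likewise. Bmp2, which drives hepcidin in the liver and patterns the gut wall, had 25.4 to 64.2 FPKM (median 45.5) in AIMD mice and 13.4 to 31.7 (median 24.2) in vehicle-treated mice. It was higher by 0.95 on the log2 scale (SE 0.23, adjusted p = 0.00504 in limma), with 6 of 7 AIMD mice above every vehicle-treated mouse. Neo1, a receptor that binds hemojuvelin, was higher by 0.33 (adjusted p = 0.0194 in limma) and was called in neither cluster alone (0.29, adjusted p = 0.256 in limma at high Arntl, and 0.37, adjusted p = 0.0978 in limma at low Arntl). Hfe, which associates with the transferrin receptor, was at 2.08 ± 0.271 FPKM (SD, n = 7) against 4.23 ± 1.30 (SD, n = 8) and had the opposite direction to Tfrc, a log2 fold change of -0.83 (SE 0.16, adjusted p = 0.000838 in limma). Every AIMD mouse had less Hfe than every vehicle-treated mouse, but the gap was narrow. The highest AIMD mouse was at 2.59 FPKM and the lowest vehicle-treated mouse at 2.62.

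The oxygen and iron dependent prolyl hydroxylases, which use iron to mark HIF for degradation, held the largest rise of the pathway. Egln3 (PHD3) had 24.7 to 62.5 FPKM (median 34.7) in AIMD mice and 5.78 to 27.3 (median 10.2) in vehicle-treated mice, which was a log2 fold change of 1.54 (SE 0.29, adjusted p = 0.000693 in limma). Vehicle replicate 8 reached into the AIMD range, and the other 7 vehicle-treated mice lay below every AIMD mouse. Egln1 (PHD2) was at 24.6 ± 3.82 FPKM (SD, n = 7) against 14.7 ± 3.34 (SD, n = 8), which was a log2 fold change of 0.74 (SE 0.15, adjusted p = 0.00109 in limma). Vhl, the ligase subunit that reads the mark, was lower (log2 fold change -0.45, adjusted p = 0.0211 in limma), and Hif1a (0.58, adjusted p = 0.0816 in limma), Epas1, Arnt and Egln2 were not called. Slc40a1, Slc11a2, Cybrd1 and Tfrc are known HIF targets, and of these Slc40a1 and Tfrc were called higher, Slc11a2 was not called and Cybrd1 was not tested.

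Of the 9 enzymes of heme synthesis tested 1 was called, 11.1% against 36.0% of all genes tested. Alad, which condenses aminolevulinate into porphobilinogen, had 5.49 to 10.5 FPKM (median 8.00) in AIMD mice and 10.9 to 25.2 (median 15.4) in vehicle-treated mice, and the groups did not overlap. Its log2 fold change was -1.05 (SE 0.20, adjusted p = 0.000859 in limma). The rate-limiting Alas1 was at 47.0 against 43.6 FPKM, and it and the other 7 enzymes were not called, with log2 fold changes from -0.37 to 0.18.

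Of the genes listed under heme breakdown, Blvra and Blvrb, both named as biliverdin reductases, went in opposite directions. Blvra was at 10.5 ± 1.74 FPKM (SD, n = 7) against 5.80 ± 1.09 (SD, n = 8), which was a log2 fold change of 0.80 (SE 0.13, adjusted p = 0.000217 in limma). Blvrb was at 7.26 ± 1.81 FPKM (SD, n = 7) against 18.3 ± 6.26 (SD, n = 8), which was a log2 fold change of -1.23 (SE 0.22, adjusted p = 5.0e-04 in limma). The constitutive Hmox2 had medians of 19.6 and 19.8 FPKM and was not called, like Hmox1, with a log2 fold change of -0.08 (95% interval -0.35 to 0.19, adjusted p = 0.652 in limma).

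**Figure D4:**
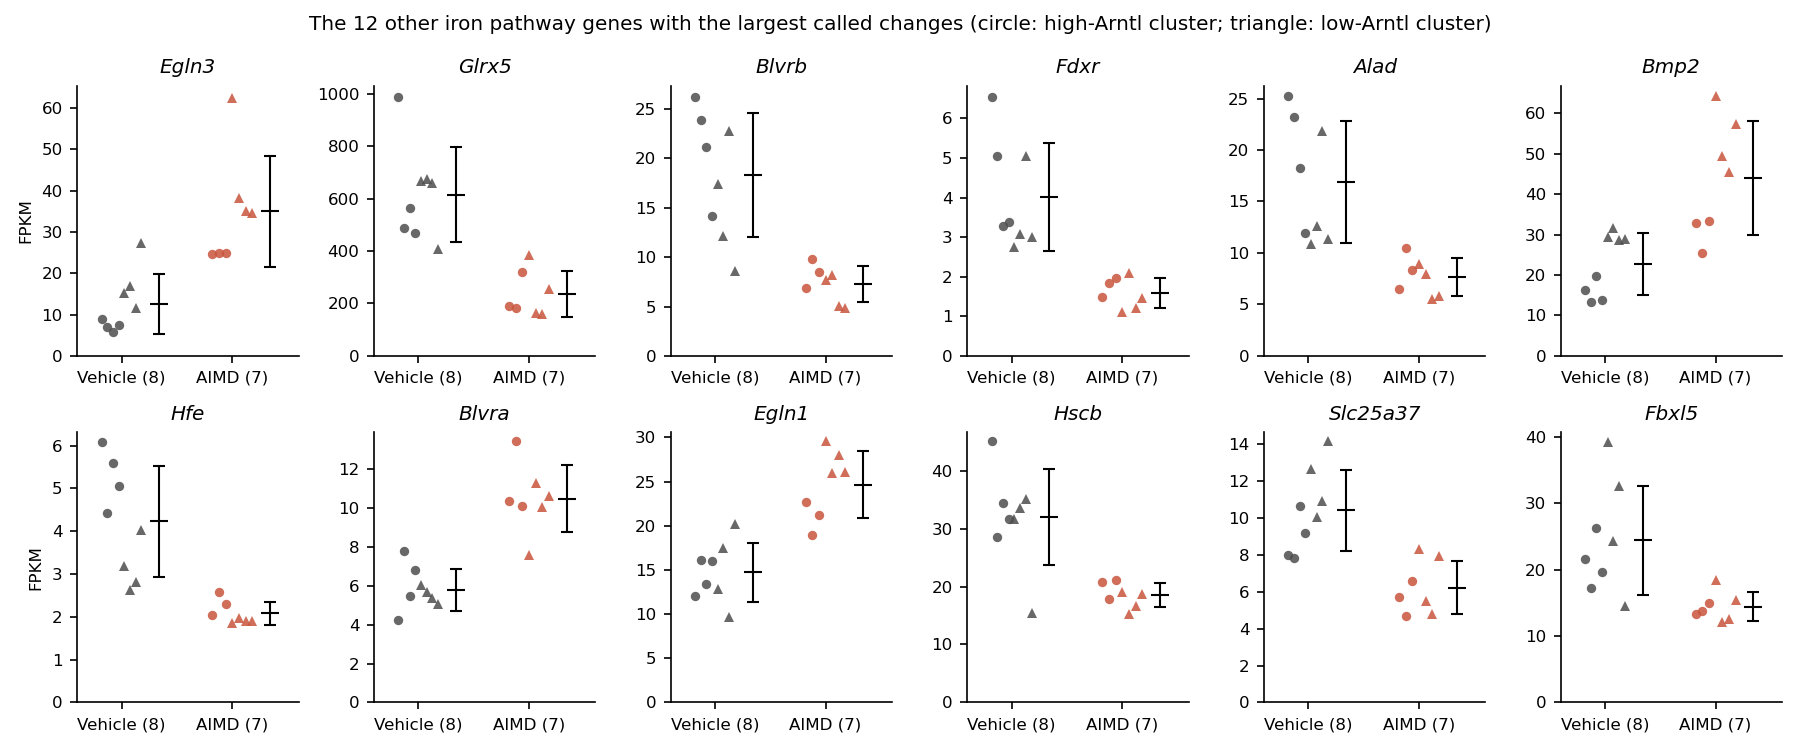
FPKM in every mouse of the 12 other iron pathway genes with the largest called changes, vehicle-treated (grey, 8 mice) and AIMD (red, 7 mice), with the mean and SD as bars. AIMD mice lie below all vehicle-treated mice for Glrx5, Fdxr, Alad and Hfe. The 12 were picked for large changes, and the share of all tested genes that lay wholly lower was not computed.

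Mitochondrial iron import and iron-sulfur cluster assembly, with 5 and 21 of the 65 pathway genes tested, held 7 of the 14 lower genes. In either direction 60.0% and 28.6% of these lists were called, against 36.0% of all genes tested. Both mitoferrins, which carry iron into mitochondria, were lower in AIMD mice, Slc25a37 with a log2 fold change of -0.70 (SE 0.15, adjusted p = 0.00203 in limma) and Slc25a28 with one of -0.51 (SE 0.18, adjusted p = 0.038 in limma). Slc25a37 had 4.67 to 8.32 FPKM (median 5.74) in AIMD mice and 7.80 to 14.2 (median 10.3) in vehicle-treated mice. Abcb10, a partner of mitoferrin in the inner membrane, was higher by 0.43 (adjusted p = 0.00279 in limma), with no overlap of the groups.

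Of 21 tested genes of iron-sulfur cluster assembly 1 was higher and 5 lower in AIMD mice, with a median log2 fold change of -0.12. Glrx5, which passes new clusters on, had 158 to 385 FPKM (median 189) in AIMD mice and 409 to 987 (median 611) in vehicle-treated mice, and the groups did not overlap. It was the largest fall of the pathway, with a log2 fold change of -1.41 (SE 0.22, adjusted p = 0.000155 in limma). Transcripts of the ferredoxin reductase Fdxr were lower, with a log2 fold change of -1.07 (SE 0.17, adjusted p = 0.000201 in limma). Those of the ferredoxin Fdx1 were lower too, with -0.62 (SE 0.22, adjusted p = 0.0376 in limma). The cochaperone Hscb was lower (log2 fold change -0.73, adjusted p = 0.00334 in limma), although not called in the low-Arntl cluster alone (-0.65, adjusted p = 0.0862 in limma), and Mms19 of the cytosolic machinery was lower (-0.52, adjusted p = 0.000711 in limma). Nubp1, a cytosolic scaffold, was the 1 gene higher (0.45, adjusted p = 0.0434 in limma). The scaffold Iscu and the desulfurase Nfs1 were not called (adjusted p = 0.927 and 0.701 in limma).

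Of 5 tested genes of non-heme uptake and reduction 0 were higher and 1 lower in limma. Slc39a14 (ZIP14), which imports non-transferrin iron, was lower (log2 fold change -0.36, adjusted p = 0.0461 in limma), and Steap1, Steap2, Steap3 and Slc39a8 were not called. Of 4 tested genes of heme transport and scavenging 0 were called by limma, and their log2 fold changes were -0.14 to -0.07. The cytosolic chaperone Pcbp1 was lower (log2 fold change -0.34, adjusted p = 0.0314 in limma), while Pcbp2 and Ncoa4, the receptor that sends ferritin to lysosomes, were not called.

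**Figure D5:**
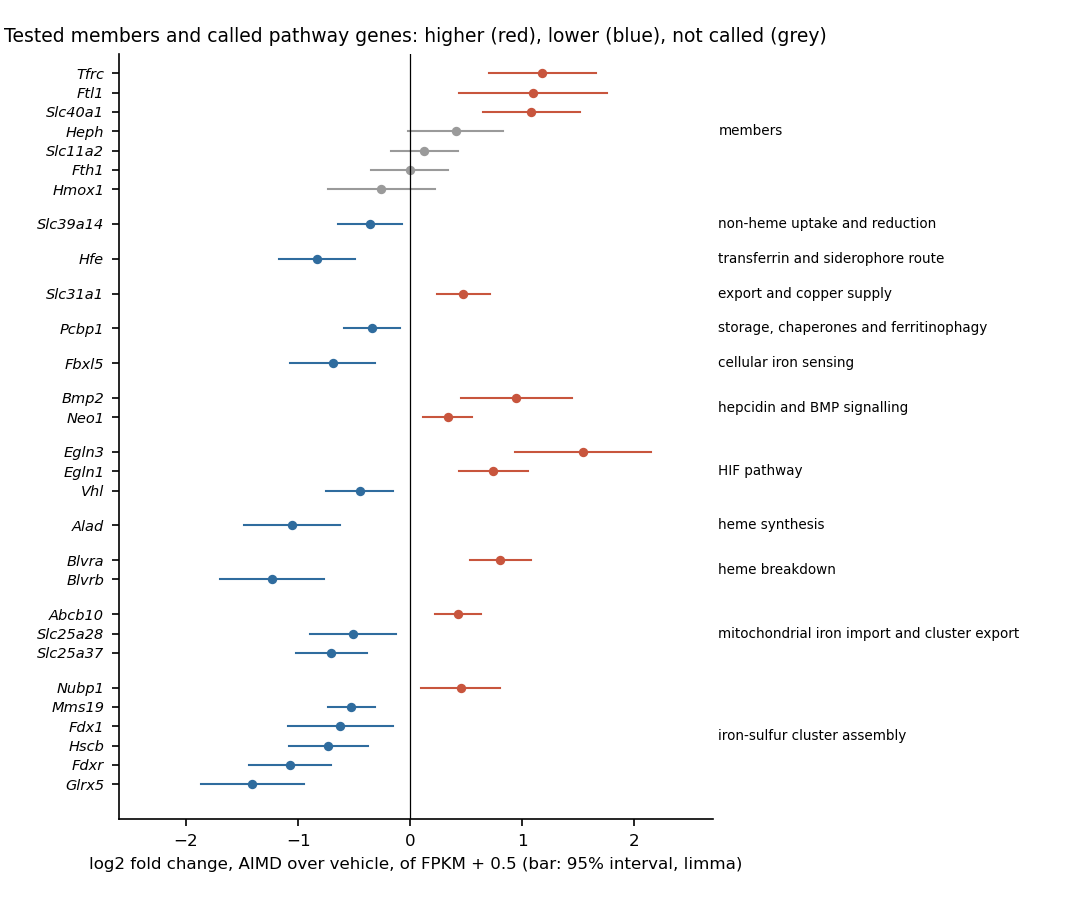
Log2 fold change, AIMD over vehicle, of log2(FPKM + 0.5) with its 95% interval from limma for the 7 tested members and for the 8 higher and 14 lower pathway genes that were called, by list, with red for called higher, blue for called lower and grey for not called. The largest changes are Egln3 at 1.54 and Glrx5 at -1.41, and among the members Tfrc at 1.18, Ftl1 at 1.09 and Slc40a1 at 1.08.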

How the data were processed

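Cecal poly-A RNA was sequenced from stranded libraries with single reads. The authors mapped reads to GRCm38 with STAR, counted reads per GENCODE gene with featureCounts, and deposited FPKM for each mouse. How counts became FPKM, the strand setting and tool versions are not given in the sources used here. Groups and mouse numbers came from the labels. Members and lists were chosen with earlier results of these data known. The members, the 12 called pathway genes with the largest change and the lists of iron sensing, hepcidin and heme breakdown are named by rule, and other genes were named after their values were seen.

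Each mouse was rescaled by its median-of-ratios size factor, taken over 13594 genes and 1.01 in every mouse. The rescaling therefore changed little, and the alternative with FPKM as deposited nearly repeats the main fit. Genes that reached 0.5 FPKM in 7 or more mice were tested on log2(FPKM + 0.5) with limma 3.58.1 (R 4.3.3, lmFit and eBayes with a trend), two-sided, with Benjamini-Hochberg adjustment over 11971 genes and a threshold of 0.05. This scale understates changes of low genes. Means and SDs are of the deposited FPKM. Of 17708 genes above 0 in at least 7 mice 99.99% gave whole reads from the FPKM steps (tolerance 0.02 reads), 64.4% at their GENCODE M21 exon length and the rest at another length, and voom on these called 4449 genes. Alternatives were scalings, pseudocounts, filters, thresholds, clock-gene terms, voom and mice left out. Counts over the lists cover a few genes that are not reported here. Left out were 4 rows with repeated symbols. Scripts were tested on simulated data.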

Additional observations from a re-analysis of the deposited data

Results flagged for a closer look

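Among 48 groups of mice examined for the genes named, 3 had a single mouse apart from the others by Dixon's 95% criterion, about the rate of 1 in 20 that chance gives. Vehicle replicate 2 had an Ftl1 FPKM of 38.8 where the other vehicle-treated mice reached at most 18.8, and without it the log2 fold change of Ftl1 was 1.27 (limma adjusted p = 0.00248). AIMD replicate 4 had an Egln3 FPKM of 62.5, the highest of all mice, and without it the log2 fold change was 1.39 (limma adjusted p = 0.00153). Vehicle replicate 1 had a Glrx5 FPKM of 987, and without it the log2 fold change was -1.30 (limma adjusted p = 0.000297).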

How the results depend on the processing

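The counts of members called, 3 higher and 0 lower, stayed at 2 to 4 higher and 0 lower under every alternative run, and neither the 3 members called nor the called genes named by rule changed sign. Of the other iron pathway genes 8 were higher and 14 lower as reported. In the high-Arntl cluster 4 and 8 were called, and 7 and 7 in the low-Arntl cluster (all genes tested, 15.7% and 20.7% called). When an absolute log2 fold change of at least 1 was also required, 1 and 4 were called. With the clock-gene axis as a term 10 were higher and 17 lower, and 5103 of the 11971 genes tested were called. With each mouse left out in turn, 7 to 9 pathway genes were higher and 10 to 18 lower, and the 18 came without vehicle replicate 8. A replicate block gave 3 members higher and 0 lower, and 8 pathway genes higher and 15 lower, but same-numbered mice correlated at -0.35 to 0.43 and 1 of 7 AIMD mice correlated best with its own number, so the numbers were taken as names. Slc11a2 went from 0.13 to -0.05 in the high-Arntl cluster and Fth1 from -0.00 to 0.49 after quantile normalization, neither called; the cause was not tested. Depth limits Cybrd1 and Hmox1, which rest on under 100 reads a mouse.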
